A study of Mus musculus with 12 samples.

Results

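The genes of tight junctions and desmosomes were followed on 12 Agilent 4x44K arrays in 1 colour of RNA from mouse pancreatic islets, with 3 arrays for each of 4 genotypes. All genes with a named probe were taken whose symbol is that of a claudin (Cldn), a zonula occludens protein (Tjp), a desmoglein (Dsg), a desmocollin (Dsc) or a plakophilin (Pkp), together with Ocln, Cgn, F11r, Marveld2, Marveld3, Dsp, Jup, Ppl, Evpl, Perp and Cdh1. This gave 49 of the 17305 named genes on the array, with 70 probes. The 49 genes are 24 claudins, 8 other tight junction genes, 7 desmosomal cadherins, 9 genes of the desmosomal plaque including Perp, and Cdh1. Each gene is given by its brightest probe, and 14 genes have more than 1 probe.

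WT mice carried both genes intact. PPARγ2KO mice lacked the γ2 isoform of PPARγ in the whole animal, ob/ob mice lacked leptin, and POKO mice lacked both. All 4 genotypes were on a mixed C57BL/6 and Sv129 background and were fed chow. The mice were young females, of 4 or 5 weeks, since the sources give both ages. Islets were freed with collagenase, picked by hand and cultured overnight, and RNA of 3 to 4 mice was pooled for each array. With 3 pools per genotype, p-values measure the spread between pools and not between single mice.

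Tight junctions are belts of strands below the apical surface of epithelial and endothelial cells that close the space between neighbouring cells. Claudins form the strands and set which ions pass, occludin and the other MARVEL proteins insert into them, and the zonula occludens proteins bind them to actin from inside. Desmosomes are spot-like junctions in which desmogleins and desmocollins of neighbouring cells bind each other, and plakoglobin (Jup), plakophilins and desmoplakin (Dsp) anchor them to intermediate filaments. E-cadherin (Cdh1) holds epithelial cells together at adherens junctions. In the pancreas such genes are used by duct, acinar and endocrine cells, while claudins such as Cldn5 belong to endothelium. In whole islets, fewer cells of a type and less RNA per cell cannot be told apart.

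Of the 49 genes, 34 were well above background on all 12 arrays, 8 on some arrays and 7 on none. All 8 of the other tight junction genes, Cdh1, 8 of 9 plaque genes and 15 of 24 claudins were above background throughout. Among desmosomal cadherins this held for Dsc2 and Dsg2, the pair found in simple epithelia, and not for Dsc1, Dsg1a, Dsg1b, Dsg3 and Dsg4, which are known from epidermis and hair. The 7 genes above background on no array were Dsc1, Dsg1a, Dsg4, Cldn16, Cldn17, Cldn22 and Cldn34b2. Levels are normalized log2 signals, which can be compared between arrays for a gene but not between genes.

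Pparg itself read 8.85 to 8.98 in WT and 8.54 to 9.77 in ob/ob, against 6.60 to 7.44 in PPARγ2KO and 6.41 to 7.14 in POKO, so the 2 genotypes labelled as lacking PPARγ2 lay below the other 2. Lep was not well above background on any array. Before normalization the arrays' median processed signals lay between 20.9 and 30.4 in WT and PPARγ2KO and between 30.7 and 40.6 in ob/ob and POKO, and no spot was saturated. The 3 slides each held 1 array of every genotype, always at the same position for a genotype, so position on the slide and genotype cannot be told apart.

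The plot of the 34 genes above background on all arrays shows the pattern by array. In each array the median of these genes' deviations from their WT means was taken. It was -0.22 to 0.14 in WT, -0.33 to -0.10 in PPARγ2KO, -0.68 to -0.56 in ob/ob and -0.36 to -0.28 in POKO. The 3 ob/ob arrays were thus the lowest of the 12. POKO arrays lay below WT arrays and overlapped with PPARγ2KO.

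**Figure D1:**
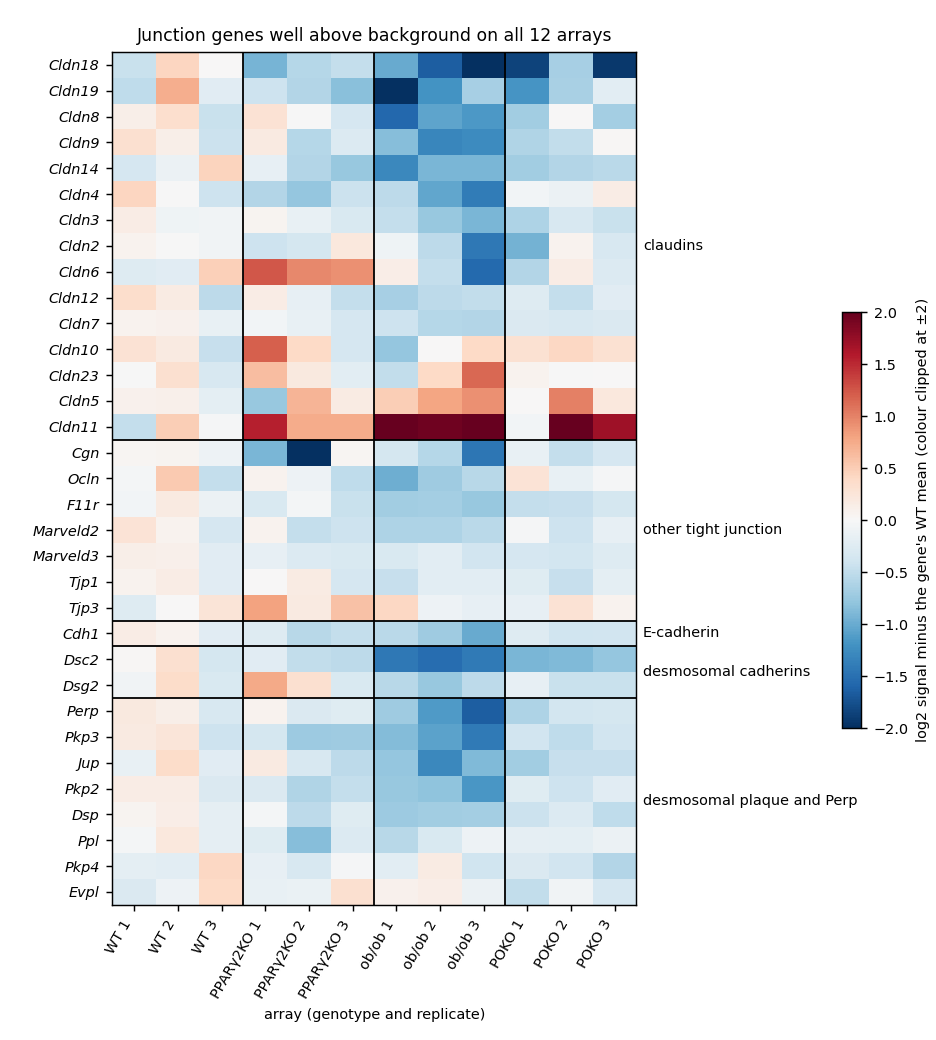
Normalized log2 signal of the junction genes well above background on all 12 arrays (1 of the 34 is not drawn), as the difference from each gene's WT mean (colour, clipped at ±2). Columns are arrays, rows are genes grouped by role. The ob/ob columns are blue for most claudins, Dsc2 and plaque genes, with a median deviation of -0.68 to -0.56, while Cldn11 and Cldn5 are red.

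The first question was how junction genes in ob/ob islets compared with WT. More genes of both kinds of junction were lower than higher in ob/ob. At an adjusted p of at most 0.05, 15 of 49 genes fell (30.6%, against 7.13% of all named genes) and 1 rose, Cldn15 (2.04%, against 6.48%). With a log2 fold change of at least 1 in addition, 6 fell (12.2%, against 2.17%) and 1 rose (2.04%, against 4.51%). Over the 34 genes above background on all arrays, the 15 that fell were 44.1%, against 9% of all genes so detected. The median log2 fold change was -0.56 over the 49 genes and -0.06 over all named genes, and 36 of 49 were lower (73.5%, against 56.1%).

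All ob/ob arrays lay below all WT arrays for 28 of 49 genes (57.1%, against 25.3% of named genes) and above them for 4 (8.16%, against 13.9%), which were Cldn5, Cldn11, Cldn15 and Cldn34c1. The 28 include 6 genes not well above background on any array, for which this order has no meaning as a level. Arrays of a slide gave the same direction: over the 34 genes the median of ob/ob minus WT was -0.64, -0.73 and -0.58 on the 3 slides, with 29, 29 and 27 genes lower, against -0.10, -0.06 and -0.03 over all genes so detected. With the slide as a block 15 genes passed in place of 16.

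The count rests on the arrays of the comparison. Without WT replicate 1 it was 3 genes (Cldn14, Dsc2 and F11r), and without WT replicate 2, ob/ob replicate 2 or ob/ob replicate 3 it was 1 gene, Dsc2. In those 4 fits the share of all named genes past adjusted p 0.05 also went from 13.6% to between 0.393% and 1.24%. Without WT replicate 3, the WT array with the lowest junction signal, 21 genes passed (42.9%, against 25% of named genes). A fit on the 6 WT and ob/ob arrays alone gave 2, Dsc2 and Cldn11 (4.08%, against 1.67%). Of the 16 genes Dsc2 alone passed in all 22 other settings in which it was fitted, and the other 15 passed in 12 to 18 of them.

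**Figure D2:**
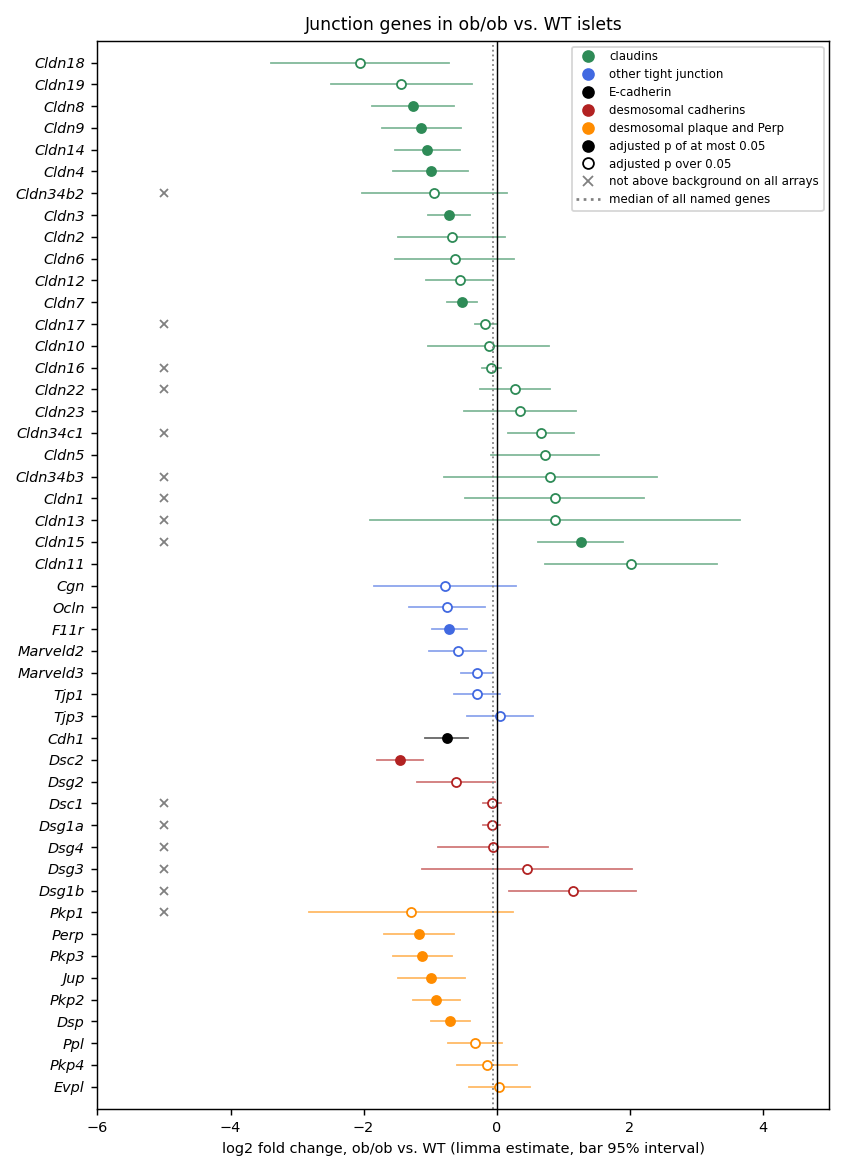
Log2 fold change of the junction genes in ob/ob vs. WT (points, 1 of the 49 not drawn) with 95% intervals of the limma fit (bars), grouped by role; filled points have an adjusted p of at most 0.05 and crosses mark genes not above background on all arrays. Of the filled points 14 lie left of 0 and 1, Cldn15, lies to the right.

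Among desmosomal cadherins, Dsc2, the desmocollin of simple epithelia, changed most clearly. Dsc2 (NM_013505) read 8.31, 8.60 and 7.94 in WT, 8.06, 7.79 and 7.76 in PPARγ2KO, 6.86, 6.76 and 6.87 in ob/ob, and 7.36, 7.40 and 7.51 in POKO. The ob/ob arrays were the lowest, the POKO arrays came next without overlap, and the WT and PPARγ2KO arrays overlapped. Dsc2 fell by 1.45 ± 0.16 (SE) on the log2 scale in ob/ob vs. WT, or 2.74-fold, with a limma adjusted p of 0.00771. Its adjusted p stayed between 0.00171 and 0.0419 over the 22 other settings, and its 2 further probes had fold changes of -1.50 and -1.55. Its partner Dsg2 read 9.33, 9.77 and 9.09 in WT and 8.85, 8.64 and 8.88 in ob/ob, a difference of -0.61 ± 0.26 (adjusted p = 0.147). The 3 further probes of Dsg2 gave -0.92 (adjusted p = 0.0325), -1.02 and -0.10, so its probes disagree. Dsg1b, an epidermal desmoglein, was above background on 1 WT array and on all ob/ob arrays, where it read 4.71, 5.19 and 3.51 against 2.64, 3.70 and 3.63 in WT. These overlap, and the difference of 1.14 ± 0.42, of uncertain size with 2 WT arrays not above background, had an adjusted p of 0.103.

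In the desmosomal plaque 5 of 9 genes fell in ob/ob, against 7.13% of all named genes. Pkp3, a plakophilin of most epithelial desmosomes, read 13.37, 13.43 and 12.77 in WT and 12.32, 12.12 and 11.78 in ob/ob, with no overlap. It fell by 1.12 ± 0.20 (adjusted p = 0.0213). Pkp2, the plakophilin of heart and simple epithelia, read 10.80, 10.81 and 10.37 in WT and 9.91, 9.86 and 9.50 in ob/ob. It fell by 0.91 ± 0.16 (adjusted p = 0.0204). The epidermal plakophilin Pkp1 was lower by 1.29 ± 0.68, which its spread did not bear out (adjusted p = 0.23), with ob/ob arrays from 3.21 to 5.67 and WT arrays from 4.79 to 6.16.

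Plakoglobin (Jup), which binds cadherin tails in desmosomes and adherens junctions, read 8.81, 9.32 and 8.73 in WT and 8.19, 7.67 and 8.07 in ob/ob. The groups did not overlap and Jup fell by 0.98 ± 0.22 (adjusted p = 0.032). Desmoplakin (Dsp), the link to intermediate filaments, read 11.03, 11.12 and 10.80 in WT and 10.26, 10.29 and 10.31 in ob/ob. It fell by 0.69 ± 0.13 (adjusted p = 0.0241), and its second probe above background on all arrays gave -0.70. Perp, a membrane protein of desmosomes and a target of p53, read 13.22, 13.14 and 12.71 in WT and 12.31, 11.88 and 11.37 in ob/ob. It fell by 1.17 ± 0.23 (adjusted p = 0.0262). Periplakin (Ppl), envoplakin (Evpl) and Pkp4 had differences of -0.32, 0.039 and -0.15 and none passed.

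Of the 24 claudins 6 fell and 1 rose, against 7.13% and 6.48% of all named genes. They ranged from -2.05 to 2.02 with a median of -0.35. The claudins that fell are of epithelia. Cldn3, Cldn4 and Cldn7 are common to glandular epithelia. Cldn7 read 14.43, 14.45 and 14.21 in WT and 13.95, 13.79 and 13.78 in ob/ob, and fell by 0.52 ± 0.10 (adjusted p = 0.0243). Cldn3 read 14.51, 14.27 and 14.30 in WT and 13.88, 13.60 and 13.45 in ob/ob, and fell by 0.71 ± 0.14 (adjusted p = 0.0258). Neither overlapped between the groups. Cldn4 read 12.88, 12.45 and 12.04 in WT and 11.93, 11.42 and 11.05 in ob/ob, where the highest ob/ob array came close to the lowest WT array, and fell by 0.99 ± 0.25 (adjusted p = 0.0393).

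Cldn8, a claudin of the kidney's collecting duct, read 5.33, 5.56 and 4.77 in WT and 3.64, 4.16 and 4.08 in ob/ob. It fell by 1.26 ± 0.27 (adjusted p = 0.03). Cldn9 and Cldn14 are best known from the inner ear, where their loss causes deafness. Cldn9 read 8.61, 8.41 and 7.87 in WT and 7.45, 7.00 and 7.04 in ob/ob, and fell by 1.13 ± 0.26 (adjusted p = 0.034). Cldn14 read 5.07, 5.29 and 5.86 in WT and 4.12, 4.49 and 4.49 in ob/ob, and fell by 1.04 ± 0.22 (adjusted p = 0.0278). None of these 3 overlapped between the groups. With scaling to the 75th percentile Cldn14, at -0.78, no longer passed. Under normexp, which adds a constant to every signal, Cldn8 and Cldn14 kept their calls at -0.17 and -0.16, so the size of these differences depends on the processing.

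Cldn18 and Cldn19 had the largest differences below 0 without passing the test. Cldn18, the claudin of stomach and lung, read 6.47, 7.35 and 6.93 in WT and 5.91, 5.27 and 3.41 in ob/ob. The groups did not overlap, but ob/ob replicate 3 lay far below the other 2, and the difference was -2.05 ± 0.59 (adjusted p = 0.0547). Cldn19, which acts with Cldn16 in the kidney, had a difference of -1.43 ± 0.47 (adjusted p = 0.0763), with ob/ob arrays at 3.57, 4.81 and 5.34 and WT arrays at 5.50, 6.73 and 5.78. Its further probe, above background on 4 arrays, gave 0.46.

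On the other side, Cldn15, which forms cation pores in the gut, was well above background on 1 of 3 WT arrays and on all ob/ob arrays. It read 4.14, 3.92 and 4.80 in WT and 5.64, 5.07 and 5.92 in ob/ob, without overlap, and rose by 1.26 ± 0.29 (adjusted p = 0.0319). The WT mean includes 2 arrays not above background, so the size of this difference is uncertain, and under normexp it was 0.18. Cldn11, the claudin of myelin and testis, read 5.73, 6.69 and 6.19 in WT and 8.25, 8.15 and 8.26 in ob/ob. This difference of 2.02 ± 0.57 was the largest above 0 of the 49 genes, with an adjusted p of 0.0522. Cldn5, the endothelial claudin, read 9.95, 9.96 and 9.66 in WT and 10.34, 10.64 and 10.76 in ob/ob, and its difference of 0.73 ± 0.36 did not pass (adjusted p = 0.208). Cldn1 was well above background on no WT array and on 1 ob/ob array, so no fold is given.

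Among the 8 other tight junction genes, F11r, the junctional adhesion molecule JAM-A, read 14.47, 14.71 and 14.40 in WT and 13.83, 13.85 and 13.76 in ob/ob, without overlap, and fell by 0.71 ± 0.12 (adjusted p = 0.018). Tjp1 (ZO-1), which links the strands to actin, read 8.44, 8.52 and 8.14 in WT and 7.90, 8.15 and 8.15 in ob/ob. These overlap, and the difference was -0.30 ± 0.15 (adjusted p = 0.22). A dimmer probe of Tjp1, above background on 9 arrays, gave -1.87 (adjusted p = 0.0214), so the 2 probes disagree. Tjp3 (ZO-3) differed by 0.052 ± 0.22.

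Occludin (Ocln) read 9.21, 9.76 and 8.77 in WT and 8.27, 8.54 and 8.69 in ob/ob, a difference of -0.75 ± 0.25 (adjusted p = 0.0837). Tricellulin (Marveld2), which sits where 3 cells meet, differed by -0.59 ± 0.19 (adjusted p = 0.0717), and both were without overlap. Cingulin (Cgn), which ties the junction to actin and myosin, differed by -0.78 ± 0.47. E-cadherin (Cdh1) read 13.87, 13.79 and 13.50 in WT and 13.18, 13.01 and 12.72 in ob/ob. It did not overlap and fell by 0.75 ± 0.14 (adjusted p = 0.0243). Of 12 further probes of the 49 genes that were above background on all arrays, 11 had the sign of the brighter probe.

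**Figure D3:**
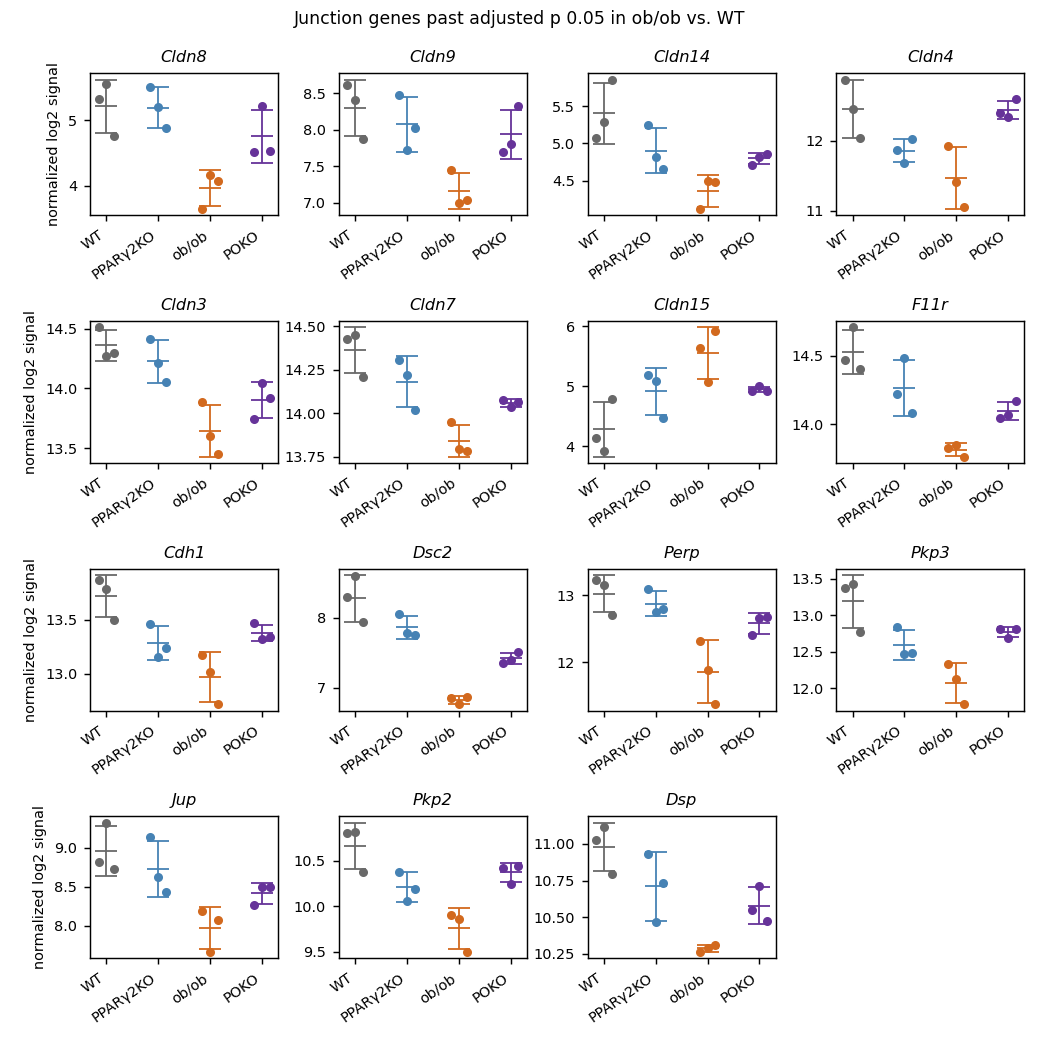
Normalized log2 signal of 15 of the 16 junction genes with an adjusted p of at most 0.05 in ob/ob vs. WT; points are arrays, bars the mean ± SD (n = 3), and each panel has its own axis that does not start at 0. In every panel the ob/ob points lie on one side of the WT points.

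The second question was how genotypes without PPARγ2 compared on either background. No junction gene passed adjusted p 0.05 in POKO vs. WT (limma, 0 of 49, against 0.214% of named genes), in PPARγ2KO vs. WT (0, against 0%) or in POKO vs. ob/ob (0, against 0%). At an unadjusted p under 0.05 there were 13, 11 and 13 genes, which are 26.5%, 22.4% and 26.5%, against 17.2%, 8.83% and 11.8% of named genes. With array weights, which give less weight to arrays that deviate more, 13 genes passed adjusted p 0.05 in POKO vs. ob/ob (26.5%, against 17.1% of named genes) and 6 in POKO vs. WT (12.2%, against 10%). Both limits were passed by 2 genes in POKO vs. ob/ob (4.08%, against 3.17%) and by 0 in POKO vs. WT (0%, against 4.77%). The weights were 3.75 for ob/ob replicate 2 and 0.50 and 0.62 for ob/ob replicates 1 and 3. The weighted ob/ob values therefore rest mainly on replicate 2. The comparisons share arrays with each other and with ob/ob vs. WT.

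In POKO vs. ob/ob 34 of 49 genes were higher, with a median of 0.26 against 0.01 over all named genes. The other 15 were lower (30.6%, against 47.5% of named genes). Without ob/ob replicate 3 the median of the junction genes was 0.16. On the 3 slides the median of POKO minus ob/ob over the 34 genes above background was 0.23, 0.40 and 0.42. Cldn4 had the largest difference: POKO arrays read 12.39, 12.34 and 12.60, all above the ob/ob arrays, and the difference was 0.98 ± 0.25 (adjusted p = 0.531). Against WT the POKO value of Cldn4 differed by -0.01 ± 0.25. Occludin read 9.51, 9.09 and 9.22 in POKO, above all ob/ob arrays, with a difference of 0.77 ± 0.25 from ob/ob (adjusted p = 0.531) and of 0.03 ± 0.25 from WT. Cldn8, at 4.51, 5.23 and 4.53, and Cldn9, at 7.69, 7.80 and 8.32, also lay above all ob/ob arrays, by 0.80 ± 0.27 and 0.77 ± 0.26. Dsg1b differed the other way, with POKO arrays at 3.28, 3.79 and 3.46 that overlap those of ob/ob, and a difference of -0.96 ± 0.42 (adjusted p = 0.536).

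Markers of other cells differed between these groups too, although none passed. The median of POKO minus ob/ob was 0.34 for duct markers, of which 10 of 12 were higher, and 0.72 for fibroblast markers, of which 8 of 9 were higher. It was -0.82 for beta cell markers and -0.40 for endothelial markers, with 9 of 9 lower in each, and -0.56 for markers of delta and PP cells, with 4 of 4 lower. Their part in the junction differences was not tested.

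Pkp2 and Pkp3 had POKO values between ob/ob and WT. Pkp2 read 10.42, 10.25 and 10.44 in POKO, a difference of 0.61 ± 0.16 from ob/ob and of -0.29 ± 0.16 from WT. Pkp3 read 12.81, 12.69 and 12.82, a difference of 0.70 ± 0.20 from ob/ob and of -0.42 ± 0.20 from WT. Perp read 12.40, 12.66 and 12.67, a difference of 0.72 ± 0.23 from ob/ob. None of these 3 passed against ob/ob (adjusted p = 0.531 for each). With array weights all 3 passed there, at adjusted p of 0.0228 for Pkp2, 0.0223 for Pkp3 and 0.0235 for Perp, as did Cldn4 (0.0218), Cldn9 (0.0258) and Ocln (0.032). Dsg1b, which was lower in POKO than in ob/ob, passed with array weights as well, at an adjusted p of 0.028. On the ob/ob side all these weighted results rest mainly on replicate 2.

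In POKO vs. WT 36 of 49 genes were lower (73.5%, against 59.2% of named genes), with a median of -0.30 against -0.06 over all named genes. Over the 34 genes above background on all arrays 82.4% were lower, against 60.7% of all genes so detected. By slide the median over the 34 genes was -0.39, -0.47 and -0.08, so slide 3 gave the smallest difference. Dsc2 was the junction gene with the smallest adjusted p, 0.0707, at -0.86 ± 0.16, and the POKO arrays lay below all WT arrays. F11r differed by -0.43 ± 0.12 (adjusted p = 0.126), Cldn3 by -0.46 ± 0.14 (adjusted p = 0.162) and Cldn18 by -1.48 ± 0.59 (adjusted p = 0.258). Cldn1, a claudin of skin and many epithelia, was above background on all 3 POKO arrays, at 3.86, 4.41 and 4.04, and on no WT array. By this probe the POKO level was at least 1.22-fold that of WT, and the test did not pass (adjusted p = 0.191). The limit takes, for each WT array, the higher of Cldn1's own signal and the dimmest signal called above background. That dimmest signal was 3.02 to 3.09 on POKO arrays and 3.55 to 4.04 on WT arrays, so the call is reached at lower signals in POKO. The further probe of Cldn1 was above background on no array and differed by 0.15 (adjusted p = 0.882).

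In lean mice the difference between PPARγ2KO and WT had a median of -0.13 against -0.01 over all named genes. Of the 49 genes 33 were lower (67.3%, against 53.2% of named genes). The median of the junction genes was -0.22 without WT replicate 3, -0.042 without WT replicate 2 and -0.057 under normexp. Cdh1 and Pkp3 shared the smallest adjusted p of 0.483. Pkp3 differed by -0.60, and Cdh1 had arrays at 13.46, 13.16 and 13.24, below all WT arrays, and a difference of -0.43 ± 0.14. Cldn6, a claudin of embryonic epithelia, went the other way: it read 10.83, 10.54 and 10.50 in PPARγ2KO against 9.33, 9.37 and 10.07 in WT, a difference of 1.04 ± 0.40 (adjusted p = 0.496). Cgn read 5.89, 4.68 and 6.84 in PPARγ2KO, a spread wider than its difference of -0.99 ± 0.47.

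Whether PPARγ2 loss acted differently on the ob/ob and the lean background was tested as the interaction, the POKO minus ob/ob difference less the PPARγ2KO minus WT difference. No junction gene passed (limma, 0 of 49, against 0% of named genes), and 16 had an unadjusted p under 0.05, 15 of them above 0, which is 32.7% against 16.1% of named genes. The median was 0.36 against 0.03 over all named genes. Pkp2, Pkp3, Dsc2 and Cldn4 had the smallest p, at 1.07, 1.29, 1.01 and 1.58 on the log2 scale, with limma adjusted p of 0.224 for the first 3 and 0.233 for Cldn4. Without WT replicate 3, 4 junction genes passed both limits (8.16%, against 1.54% of named genes).

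The effect of leptin loss without PPARγ2, POKO vs. PPARγ2KO, gave no call (0 of 49, against 0%), 5 genes at an unadjusted p under 0.05 (10.2%, against 12.9% of named genes) and a median of -0.10 against -0.028 over all named genes. That share is near the background. The median of the junction genes was -0.16 to -0.0198 with 1 array left out and -0.15 to -0.027 over the other alternatives. In ob/ob vs. PPARγ2KO no gene passed (0 of 49, against 0.00578%), 16 had an unadjusted p under 0.05, 15 of them lower (32.7% in both directions, against 25.1% of named genes), and the median was -0.32 against -0.034. Dsc2 had an adjusted p of 0.0774 there. The count past both limits was 1 with the filter on dim probes (2.56% of the members kept, against 1.02% of named genes), 8 with array weights (16.3%, against 4.95%; 12 at adjusted p 0.05 alone, 24.5% against 13.8%), and up to 3 when 1 array was left out (6.12%, against 1.77% without PPARγ2KO replicate 3 and 3.47% without ob/ob replicate 1).

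**Figure D4:**
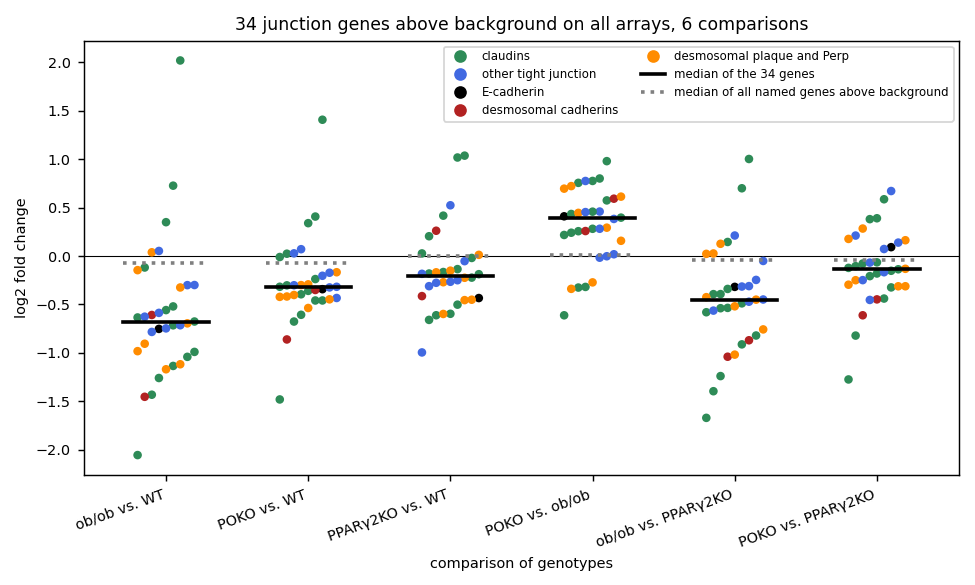
Log2 fold change of the 34 junction genes above background on all arrays in the 6 comparisons of genotypes; points are genes coloured by role, black lines their median and dotted grey lines the median of all named genes so detected. The comparisons share arrays. The black line lies at -0.69 in ob/ob vs. WT and at 0.39 in POKO vs. ob/ob, each beside a grey line near 0.

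Genes that work with these junctions were listed from membership, and the counts of this list and those that follow stand beside 7.13% of all named genes that fell and 6.48% that rose. Of 21 tight junction and polarity partners 6 fell and 2 rose in ob/ob vs. WT at adjusted p 0.05, with a median of -0.47. Pard6b and Igsf5, a polarity protein and a junctional adhesion protein, fell by 1.13 and 1.06. The 2 that rose, Jam2 (1.49) and Esam (1.46), are adhesion molecules of endothelium. Of 12 adherens junction partners 2 fell, Nectin4 by 1.57 and Ctnna1 (α-catenin) by 0.31, and the endothelial cadherin Cdh5 rose by 1.17. Of 11 connexins, the proteins of gap junctions, Gjb1 and Gjb2 fell by 1.55 and 1.38.

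Of 16 measured regulators of epithelial genes 3 fell: Grhl2, a transcription factor that drives epithelial junction genes, by 0.95, the splicing factor Esrp2 by 0.90, and Ovol2 by 0.65. Of 5 measured membrane-bound serine proteases and inhibitors the protease matriptase (St14) fell by 0.99 and its partner prostasin (Prss8) by 1.29. No gene of these 5 lists passed in the other 5 comparisons or the interaction.

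Markers of other cells moved with the junction genes. Of 12 duct markers 4 fell in ob/ob vs. WT: Krt19 by 1.57, Cftr by 1.33, Sox9 by 0.73 and Krt8 by 0.63. Krt18, also among the 3 brightest, differed by -0.30. Of the 12 markers 10 were lower, and Spp1 and Krt7 were higher, at 0.72 and 0.54 (adjusted p = 0.132 and 0.153). The summed duct signal was 665257 to 724026 in WT, 650480 to 695556 in PPARγ2KO, 390074 to 593183 in ob/ob and 577920 to 631591 in POKO, so ob/ob and POKO lay below WT. Against WT the median log2 fold change of the duct markers was -0.68 in ob/ob and -0.34 in POKO, beside -0.56 and -0.30 for the junction genes. In PPARγ2KO it was 0.047, beside -0.13 for the junction genes. Their part in the junction result was not tested.

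Acinar markers were above background on every array (12 of 12 genes) and none passed in ob/ob vs. WT, with a median of -0.03; Ctrb1 differed by -0.20, Amy2a5 by -0.01 and Cela1 by -0.30. These 3 genes, at 18.51, 18.29 and 18.39 in WT, lie near the top of the signal range. Ptf1a, the transcription factor of acinar cells, at 11.68 in WT, differed by -1.82 (adjusted p = 0.0503). Of 12 markers of stratified epithelium 1 fell, Lor, a share near the background, with a median of -0.96, 6 were above background on all arrays, and Krt4 and Krt10 were so on none. Its brightest genes Sprr1a, Sfn and Krt13 differed by -2.20, -0.30 and -1.44. The islet label was checked against beta cell markers, and Ins1, Ins2 and G6pc2 were above background on all arrays. Of 9 measured beta cell markers Nkx6-1 rose and the median was 0.14, with Ins1 at 0.93 and G6pc2 at 0.95. Of the 9 markers 3 were lower, Mafa at -1.13, Slc2a2 at -0.60 and Ucn3 at -0.10, and none of these passed. Ins2 differed by 0.04 and had an identical normalized value on every ob/ob array, as quantile normalization gives to arrays on which a gene holds the same rank, so this value says little about its level. No alpha cell marker passed, with a median of 0.26 and values of 0.25 for Gcg and 0.27 for Slc38a5. No marker of delta and PP cells passed, with a median of 0.60 and values of 0.79 for Pyy, 0.40 for Sst and 0.84 for Ppy.

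Endothelial, T and B cell markers moved in the other direction. Of 9 endothelial markers 4 rose, with a median of 1.17 and Egfl7 at 1.42, Esm1 at 1.08 and Emcn at 0.83, beside Cldn5 at 0.73. Of 8 T cell markers 6 rose, among them Lck and Cd3d, while Cd3e differed by -1.48, and the median was 4.31. Of 7 B cell markers 4 rose, among them Cd79b and Ms4a1, with a median of 2.95. On all arrays 3 of the 8 T cell and 2 of the 7 B cell markers were well above background, so the size of both medians is uncertain. The summed T cell signal was 437 to 464 in WT and 1002 to 2765 in ob/ob. One of 6 measured macrophage markers rose (C1qa by 1.34, with Cd14 at -0.70 and Csf1r at 1.09), none of 9 fibroblast markers did (median -0.11, Acta2 -0.53, Col1a2 -0.11, Dcn 0.57) and none of 5 mesothelial markers did, of which Msln alone was above background on all arrays, at 0.46. Of 5 Schwann cell markers 1 rose, S100b by 1.17, and 1 fell, with Ngfr at 0.10, and of 6 adipocyte markers Fabp4 rose by 1.31, while Adipoq was above background on no array. Whether these shifts bear on the junction genes was not tested.

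**Figure D5:**
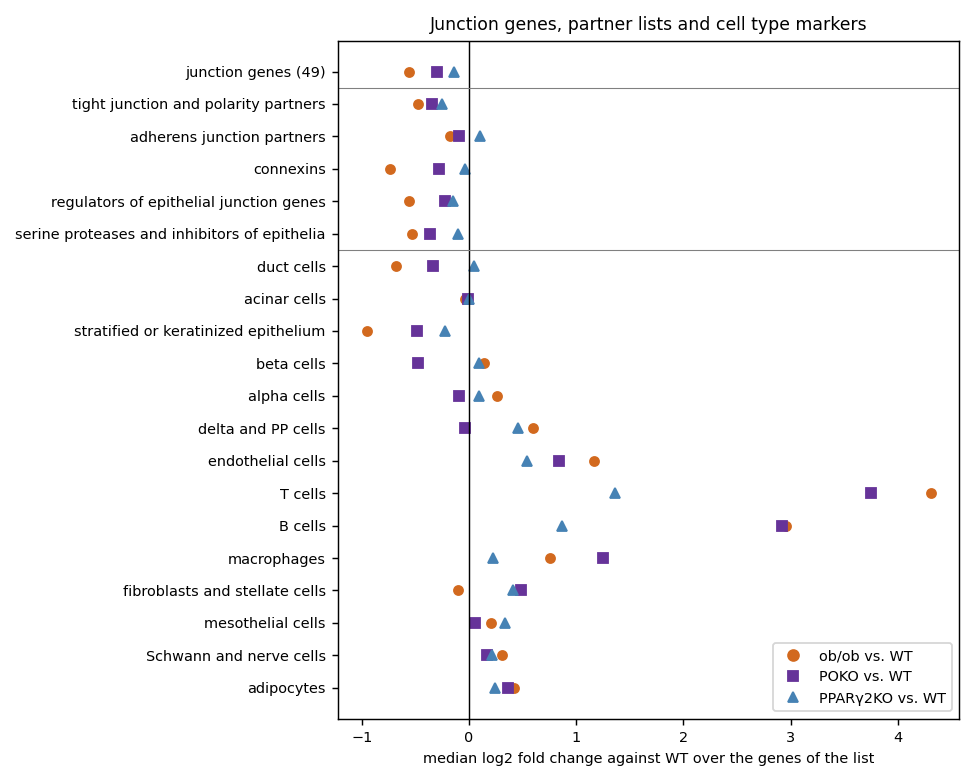
Median log2 fold change against WT of the 49 junction genes, of 5 lists of partner genes and of 14 lists of cell type markers, in ob/ob (circles), POKO (squares) and PPARγ2KO (triangles). Junction genes (-0.56), connexins (-0.73) and duct markers (-0.68) lie below 0 in ob/ob, acinar markers (-0.03) near 0, and T cell markers (4.31) above.

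Promoters are shown for the 4 genes with the smallest adjusted p in ob/ob vs. WT among those that the naming rule of the methods gives and that have an entry in the RefSeq table used, to set genes that fell beside the 1 that rose. F11r, Cldn3 and Cldn7, which also have an entry, were named only after their values were seen and are not shown. Each is the 250 bases before the gene's start, 5′ to 3′ on the gene's strand, in RefSeq's GRCm38.p6; capitals mark GGGCGG or its reverse complement CCGCCC, the GC box bound by SP and KLF factors. Desmoplakin lies at chr13:38151044-38151293 (plus strand), Jup at chr11:100397791-100398040 (minus), Cldn14 at chr16:94008838-94009087 (minus) and Cldn15 at chr5:136967619-136967868 (plus).
Dsp: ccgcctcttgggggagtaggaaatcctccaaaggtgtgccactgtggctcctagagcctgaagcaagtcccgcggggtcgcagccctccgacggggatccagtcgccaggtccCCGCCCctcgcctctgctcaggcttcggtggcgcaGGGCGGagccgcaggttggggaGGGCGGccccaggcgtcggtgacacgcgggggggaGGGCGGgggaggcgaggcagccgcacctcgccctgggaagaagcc
Jup: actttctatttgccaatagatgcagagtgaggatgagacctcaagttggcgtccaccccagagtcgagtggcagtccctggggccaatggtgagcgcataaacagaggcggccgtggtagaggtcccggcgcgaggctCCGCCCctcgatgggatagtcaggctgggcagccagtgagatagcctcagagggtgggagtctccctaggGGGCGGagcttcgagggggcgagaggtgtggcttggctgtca
Cldn14: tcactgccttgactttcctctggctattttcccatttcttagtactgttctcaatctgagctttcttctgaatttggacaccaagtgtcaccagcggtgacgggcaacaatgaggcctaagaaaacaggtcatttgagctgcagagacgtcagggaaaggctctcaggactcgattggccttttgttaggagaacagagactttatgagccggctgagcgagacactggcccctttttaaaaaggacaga
Cldn15: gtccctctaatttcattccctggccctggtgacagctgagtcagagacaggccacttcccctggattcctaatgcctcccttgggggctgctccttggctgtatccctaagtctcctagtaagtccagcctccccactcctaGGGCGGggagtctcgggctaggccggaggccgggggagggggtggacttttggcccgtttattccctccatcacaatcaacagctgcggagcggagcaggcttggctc

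Dsp holds 4 GC boxes in this window, Jup 2, Cldn15 1 and Cldn14 0, so the genes that fell differ among themselves in these letters. Cldn14 has 3 annotated starts and the other genes shown have 1, so its 0 holds only for the start used. Of the 28 junction genes with a promoter entry 16 hold the GC box (57.1%), against 33% of all 27025 promoters and 48.3% of the 13831 promoters of genes named on the array. The E-box CACCTG or CAGGTG, bound by SNAI and ZEB repressors of E-cadherin, was in 4 of 28 (14.3%, against 17.1% of all promoters). The palindrome AACCGGTT of Grainyhead-like factors was in 0 of 28 (0.126% of all), and the DR1 element of PPAR and RXR, AGGTCA repeated with 1 base between and searched on both strands, in 0 of 28 (0.037% of all). A match is a stretch of letters and not a measured binding site.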

How the data were processed

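Agilent 4x44K arrays in 1 colour of islet RNA were analysed, 3 per genotype. Before deposit, per the file headers, Feature Extraction 10.1.1.1 read the spots and subtracted background, giving the processed signal, an intensity. The authors also deposited normalized values, which are on a log2 scale by their correlation of at least 0.9997 with those computed here, and these served as an alternative. In R (4.3.3), with limma (3.58.1), 1639 control spots and 919 outlier spots were left out, processed signals were quantile normalized and put on the log2 scale, and spots of a probe were averaged. A probe is well above background as the scanner software calls it. Of 41174 probes 25097 were named through RefSeq accessions, and each gene is its probe with the highest mean signal. A limma fit (lmFit, eBayes) over all 12 arrays, in which genotype was the single term, gave 6 comparisons and the interaction, with Benjamini-Hochberg adjustment over all probes. Fold changes are given with standard errors. A gene past an adjusted p of 0.05 is called fallen or risen, and a limit of 1 on the absolute log2 fold change is given beside it. The number of arrays limits precision.

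The members and all lists were chosen with earlier results of these data known, and lists are described by counts and medians without a set test. Genes given by array are those called in any comparison, the 12 largest differences in ob/ob vs. WT and the 6 largest in POKO vs. ob/ob among genes above background on the brighter arrays, and Cdh1, Ocln, Tjp1, Dsp and Jup. The genes past adjusted p 0.05 alone (Cldn3, Cldn7, F11r and Pkp2), and Dsg2, Cldn5, Cldn6, Cgn, Marveld2, Tjp3, Ppl, Evpl and Pkp4, were added after their values were seen. Of each partner list at most 4 genes past both limits are named, or the 2 with the smallest adjusted p where none is, and of each marker list the 3 brightest. A few genes are not reported here by name. Ctnna1, Esrp2, St14, Sox9, Cftr, Lor and Nkx6-1 were added later, as they passed the adjusted p. Ptf1a, Spp1, Krt7, Mafa, Slc2a2 and Ucn3 were also added later, for their values.

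The replicate number is the slide. Deviations of same-numbered arrays correlated at -0.32 to 0.28 (median 0.0045), so the numbers share a slide and no more. Alternatives were a shift to the 75th percentile, normexp (offset 50) on the median signal, since the mean signal was not used here, quantiles on the log2 scale, a filter on dim probes, outlier spots kept, a fit on the groups compared, the slide as a block, array weights, the authors' values, the mean of a gene's probes, no fold limit, the study's own p limits, and each array left out. The fit was checked on simulated data with known changes and recovered a part of them, so a gene that did not pass may still have changed. The columns of probe and control annotation were used for names only, and the quantitative PCR of the study was not used here.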

Additional observations from a re-analysis of the deposited data

How the results depend on the processing

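No setting turned the direction of a called junction gene. The count past both limits in ob/ob vs. WT was 7 (6 lower), against 6.68% of named genes. It was 11 with the 75th percentile (8 lower), 2 with normexp, 2 in a fit on the groups compared, 12 with array weights, 16 without the fold limit and 1 to 9 with 1 array left out. Of named genes 7.75% passed both limits with the 75th percentile, 1.61% with normexp and 1.45% in the fit on the groups compared. With array weights 14.5% of named genes passed both, and with 1 array left out 0.341% to 11.8%. The count at adjusted p 0.05 was 16, and 2, 26 and 1 to 21 in the fit on the groups compared, with array weights and with 1 array left out. All named genes moved with it, from 13.6% past adjusted p 0.05 to 1.67% in the fit on the groups compared, 39.1% with array weights and 0.393% to 25% with 1 array left out. Array weights gave 13 at adjusted p 0.05 and 2 past both limits in POKO vs. ob/ob, 12 and 8 in ob/ob vs. PPARγ2KO, and 6 and 0 in POKO vs. WT. Of named genes 17.1% and 3.17%, 13.8% and 4.95%, and 10% and 4.77% passed in these comparisons. Among the ob/ob arrays the weights favoured replicate 2. In ob/ob vs. PPARγ2KO the filter on dim probes gave 1 past both limits (2.56%, against 1.02% of named genes). Leaving out 1 array gave 0 to 3 there (6.12% at most, against 1.77% without PPARγ2KO replicate 3 and 3.47% without ob/ob replicate 1). Leaving out 1 array gave 0 to 1 in POKO vs. WT and 0 to 4 in the interaction. Both highest counts came without WT replicate 3 (2.04%, against 1.08% of named genes, and 8.16%, against 1.54%). Under normexp, which adds 50 to every signal, the junction genes' medians were -0.18 in ob/ob vs. WT, -0.12 in POKO vs. WT, 0.053 in POKO vs. ob/ob, -0.14 in ob/ob vs. PPARγ2KO and 0.065 in the interaction. With 1 array left out the median was -0.60 to -0.42 in ob/ob vs. WT, -0.22 to -0.042 in PPARγ2KO vs. WT and 0.17 to 0.46 in the interaction. It was -0.38 to -0.21 in POKO vs. WT and 0.16 to 0.29 in POKO vs. ob/ob. In ob/ob vs. PPARγ2KO it was -0.38 to -0.23, and in POKO vs. PPARγ2KO -0.16 to -0.0198. In ob/ob vs. WT the 75th percentile moved the median over all probes from -0.08 to -0.19, and 38 of 49 junction genes were lower. With the slide as a replicate block 7 genes passed both limits in ob/ob vs. WT and 15 the adjusted p, and 0 passed elsewhere. The other causes of these shifts were not tested. Low signals, as of the 7 genes not above background on any array, limit what can be said of them.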

Other observations

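Several junction genes are neighbours on a chromosome, with no protein-coding gene between them in the RefSeq annotation used. Cldn3 and Cldn4 both fell in ob/ob vs. WT, by 0.71 and 0.99 on the log2 scale (limma adjusted p = 0.0258 and 0.0393). Of Cldn6 and Cldn9, Cldn9 fell by 1.13, and Cldn6 differed by -0.63 (adjusted p = 0.308). Of Cldn8 and Cldn17, Cldn8 fell by 1.26, and Cldn17 was not well above background on any array. Ocln and Marveld2 differed by -0.75 and -0.59 and neither passed. In the cluster of desmosomal cadherins Dsc2 fell by 1.45, while Dsc1 next to it was not well above background on any array. No test of neighbouring pairs was made.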
